A study of Mus musculus with 6 samples.

Results

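Macrophage and dendritic cell genes were followed in total RNA labelled as epithelium of the mouse common bile duct, the channel that carries bile from the liver to the gut. The members were 37 symbols chosen by name: general macrophage genes, genes of tissue-resident macrophages, Fc receptors with their signalling adaptors, monocyte genes, genes of lipid-associated macrophages and dendritic cell genes. Of these, 36 were found as gene names on the array, with 57 of its 56605 probes, out of 37008 genes in all (Emr1 is the older symbol of Adgre1 and was not found separately).

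All 6 samples came from C57BL/6 mice labelled iFGF10. The 3 DOX+ samples were from mice that drank water with 0.02% doxycycline for 5 days, and the 3 DOX- samples from mice given water alone for 5 days. The series title places the study in intraepithelial papillary neoplasia of the biliary tree under FGF10 signalling. FGF10 is a growth factor that connective tissue cells release and that epithelia sense through the receptor FGFR2b. The DOX- samples are labelled as untreated iFGF10 mice, while their sample descriptions begin with WT, so whether they carried the construct is not settled by the labels. The promoter that drives the construct, the ages of the mice and any pooling of mice are not given in the sources used here. No group received doxycycline without the construct, so the drug and the induced gene cannot be told apart. The series design gives 3 against 3 mice, while the sample labels do not state that each sample was a separate mouse. The p-values therefore measure only the spread between these samples.

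Macrophages are phagocytes that clear dying cells, bile components and microbes. Some are seeded early and maintained in the tissue, where they carry scavenger receptors such as CD163 and CD206. Others arise from blood monocytes that enter through chemokine signals. Dendritic cells take up antigen and carry it to T cells, and their conventional lineage depends on the receptor FLT3. Around bile ducts both lineages sit mainly in the connective tissue beneath the epithelium, so their transcripts in an epithelial preparation also report on the cells that came along with it.

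Values are log2 intensities of 1 probe per gene, scaled so that the 75th percentile of each array is 0. They are comparable between arrays for 1 probe, not between probes. A difference is DOX+ minus DOX- on that log2 scale, with its standard error (SE) from limma over 3 arrays per group, and its p was adjusted over all 20737 genes tested at a threshold of 0.05. Between 55.9% and 61.9% of the spots of an array were well above background. Pearson's r across genes was 0.963 to 0.985 within DOX- and 0.971 to 0.98 within DOX+, so no array repeated another. The epithelial keratin gene Krt19, which marks bile duct cells, lay between 6.91 and 7.88 on the 6 arrays. Other epithelial genes were less level. Of 13 measured bile duct and epithelial genes, 12 had lower means in DOX+, with a median difference of -0.21 and none past the test. Among them 6 were lower without overlap between groups, as were 10.9% of all genes. The largest difference was that of Cdh1, at -2.01 (SE 0.37, adjusted p = 0.172). None of the 3 probes for Fgf10 was well above background anywhere, so the induced gene gives no check of the labels here. One array stood apart for the members. DOX- replicate 3 was the lowest of the 6 arrays for 25 of the 32 members tested (78.1%) and for 20.7% of all genes. On the same array the mean level of 8 genes shared by all leukocytes was lowest too, and its share of spots well above background was the lowest of all. List medians and the members it moves most are given with and without it.

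None of the 32 members tested passed the test, against 0.0386% of all genes tested (8 of 20737, with 0.0193% higher and 0.0193% lower). None of their 41 tested probes passed in a fit over probes, against 0.0567% of 31720 probes. The smallest adjusted p of a member was 0.224. At an unadjusted p under 0.05 there were 6 members, 5 higher and 1 lower (18.8%), against 13.3% of all genes (7.02% higher and 6.32% lower). The DOX+ and DOX- arrays did not overlap for 7 members (21.9%), 6 higher and 1 lower, against 21.0% of all genes (10.1% higher and 10.9% lower). With arrays weighted by limma from their spread around the group means, 2 members passed (6.25%), Cd163 with an adjusted p of 0.0474 and Ly6c2 with 0.0316. Under the same weights 4.3% of all genes passed. DOX- replicate 2 had a weight of 6.33, against 0.777 and 0.326 for DOX- replicates 1 and 3. The weighted DOX- means therefore rest mainly on that array. The mean was higher in DOX+ for 17 members and lower for 15 (48.2% of all genes were higher), with a median difference of 0.034 against -0.013 for all genes. Members of at least 2-fold numbered 8, or 6 higher and 2 lower, where 5.83% of all genes reached that size. Gpnmb and Clec9a are among these 6, although they were well above background on all 3 DOX+ arrays and on only 1 DOX- array, so that they entered the test through the group where they are high and their folds rest partly on background. Over the 29 members well above background on all 6 arrays, 6 were at least 2-fold apart (4 higher and 2 lower, against 3.59% of all such genes), 5 had an unadjusted p under 0.05 (4 higher and 1 lower, against 11.8%) and 6 did not overlap (5 higher and 1 lower, against 20.3%). The median SE of a member was 0.43, against 0.19 over all genes. Without DOX- replicate 3 the median of the members was -0.46, with 10 higher and 22 lower, and 14 members had an unadjusted p under 0.05 (2 higher and 12 lower, 43.8%, against 12.6% of all genes). That array was singled out as the lowest for 25 of these 32 members, so leaving it out had to lower their differences. The excess of lower members is therefore no separate evidence. The count at an unadjusted p under 0.05 was 2 without DOX- replicate 2 (6.25%, against 7.47% of all genes). It was 3 without DOX+ replicate 2 (9.38% against 8.84%) and 4 of 33 without DOX+ replicate 1 (12.1% against 11.8%). Without DOX- replicate 1 it was 8 (25.0% against 15.9%), and without DOX+ replicate 3 it was 6 (18.8% against 13.1%). No member passed the test with any single array left out. The sign of the median was not settled with all arrays kept either, at -0.0084 with quantile normalization, -0.081 with median centring and -0.26 with array weights. In bulk RNA, fewer cells of a type and less RNA per cell cannot be told apart.

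**Figure D1:**
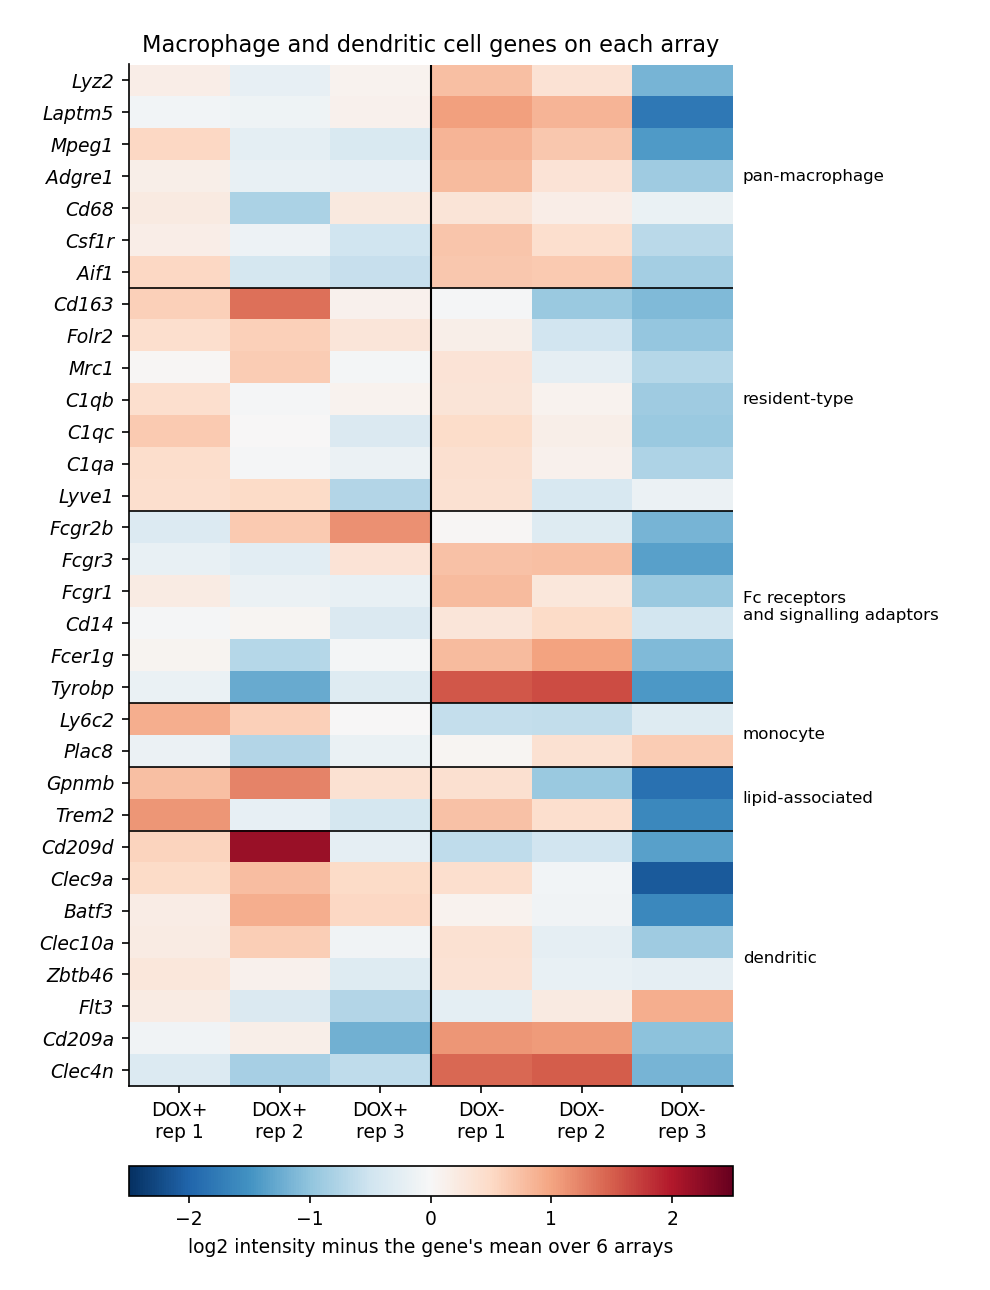
Log2 intensity of each of the 32 tested members (rows, grouped by role) on each array (columns), minus the gene's mean over the 6 arrays; red is above that mean and blue below. DOX- replicate 3 is the lowest array for 25 of the 32 genes, and the general macrophage genes other than Cd68 are highest on DOX- replicates 1 and 2.

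The 7 general macrophage genes showed no group difference beyond the spread between arrays, with 6 of 7 means lower in DOX+ and a median difference of -0.15. Cd68 encodes a lysosomal glycoprotein of phagocytes. It stood at 1.64, 0.62 and 1.66 in DOX+ and 1.74, 1.59 and 1.24 in DOX-, a difference of -0.22 (SE 0.32, adjusted p = 0.804). The groups overlapped, with DOX+ replicate 2 the lowest array, and the other 2 Cd68 probes differed by -0.24 and -0.44. Adgre1 encodes the surface protein F4/80 and read -0.27, -0.60 and -0.62 in DOX+ and 0.36, -0.086 and -1.32 in DOX-. Csf1r encodes the receptor for CSF1 and IL-34, on which most macrophages depend for survival, and read 3.00, 2.73 and 2.35 in DOX+ and 3.54, 3.27 and 2.18 in DOX-. Both genes were high on DOX- replicates 1 and 2 and lowest on DOX- replicate 3, with the DOX+ arrays between them. Their differences were -0.15 (SE 0.43) and -0.30 (SE 0.38), with adjusted p of 0.909 and 0.765. A second Csf1r probe was nearly level across the arrays, from -0.72 to -0.36.

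Aif1, Mpeg1, Laptm5 and Lyz2 repeated that order of arrays. Aif1 encodes the cytoskeletal protein IBA1 and read 1.25, 0.31 and 0.16 in DOX+ and 1.41, 1.39 and -0.11 in DOX-. Mpeg1 encodes the pore-forming protein perforin-2 and read 1.94, 1.18 and 1.04 in DOX+ and 2.26, 2.08 and -0.0026 in DOX-. Laptm5, a lysosomal membrane protein of blood-derived cells, read -0.67, -0.72 and -0.50 in DOX+ and 0.42, 0.25 and -2.40 in DOX-. On DOX- replicate 3 each of these genes lay below the other 5 arrays. Lyz2, lysozyme M of macrophages and granulocytes, read 4.65, 4.26 and 4.57 in DOX+ and 5.24, 4.83 and 3.31 in DOX- and was the only one of the 7 whose mean was higher in DOX+, by 0.031 (SE 0.49); its sign turned under 3 scalings or designs and without single arrays. Without DOX- replicate 3 all 7 means were lower in DOX+ with a median of -0.71, from -0.36 for Cd68 to -0.96 for Laptm5, and none passed the test there. Their array means were 1.11 to 1.65 in DOX+ and 2.14, 1.90 and 0.41 in DOX-.

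**Figure D2:**
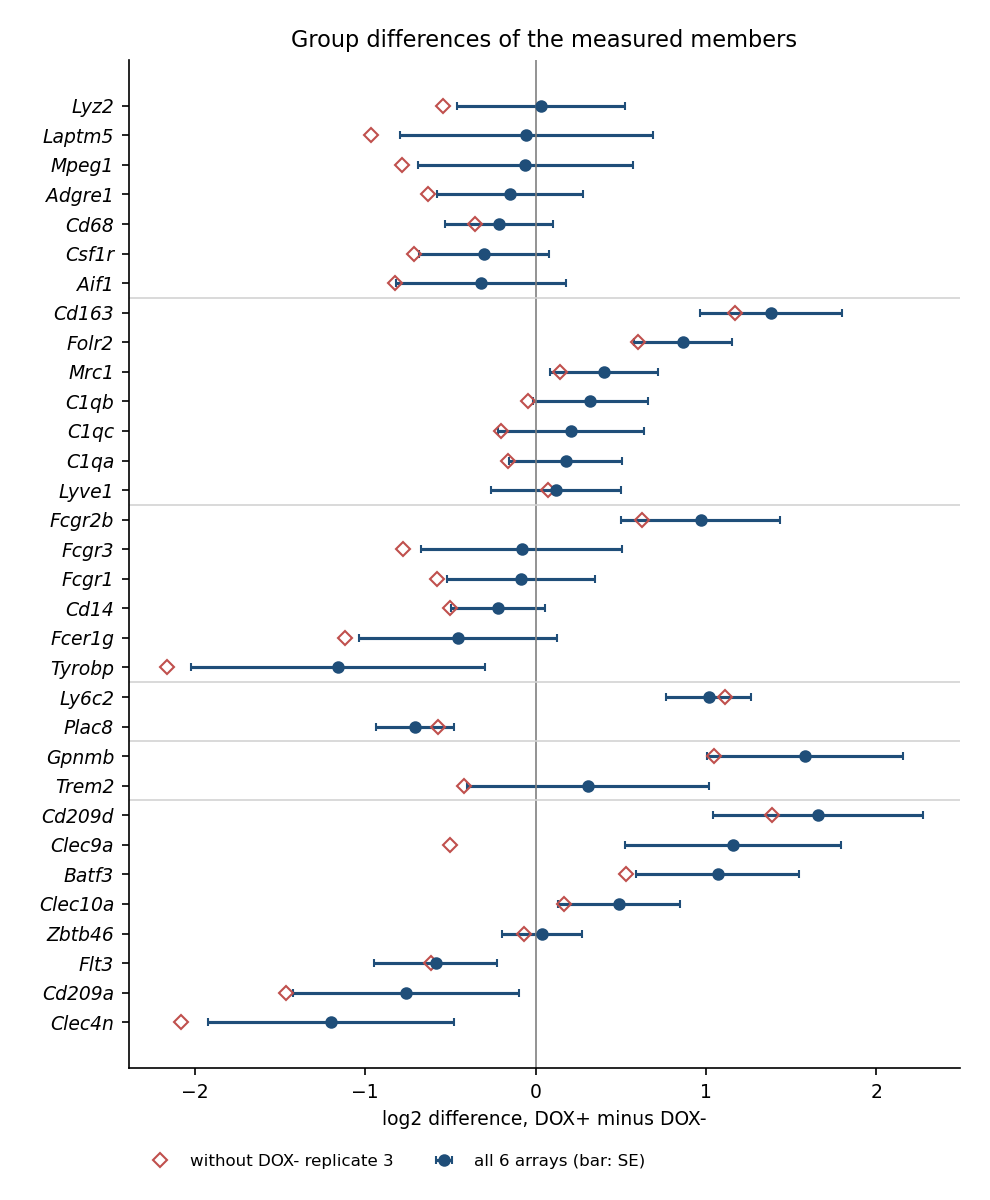
Log2 difference between DOX+ and DOX- for the 32 tested members (filled points, with SE bars) and the same difference without DOX- replicate 3 (open diamonds). Leaving that array out moves Tyrobp from -1.16 to -2.17, while Ly6c2 stays near 1; Clec9a is read by another probe in the 5-array fit.

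Fc receptors bind the constant part of antibodies, and their signals pass through small adaptors that carry activation motifs (ITAMs). Tyrobp, which encodes the adaptor DAP12 (chr7:31200651-31202378, mm9), had the widest range over the DOX- arrays among the tested members. It read 1.94, 0.85 and 1.79 in DOX+ and 3.66, 3.73 and 0.67 in DOX-. DOX- replicates 1 and 2 were far above every DOX+ array, while DOX- replicate 3 was below them all. The mean was 2.23-fold lower in DOX+, a difference of -1.16 (SE 0.86, adjusted p = 0.586), and -2.17 without DOX- replicate 3 (adjusted p = 0.142). Fcer1g, the common gamma chain of Fc receptors, had the same order of arrays at 1.69, 0.90 and 1.56 in DOX+ and 2.40, 2.61 and 0.51 in DOX-. Its difference was -0.45 (SE 0.58), and -1.12 without DOX- replicate 3.

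The activating receptors followed the adaptors. Fcgr3, the low-affinity IgG receptor, read 0.10, 0.02 and 0.63 in DOX+ and 1.02, 1.04 and -1.06 in DOX-, and Fcgr1, the high-affinity one, read -3.41, -3.76 and -3.80 in DOX+ and -2.82, -3.34 and -4.54 in DOX-. Their means differed by -0.082 and -0.088, well within their SE of 0.59 and 0.43. Cd14, the co-receptor that hands bacterial lipopolysaccharide to TLR4, read 3.82, 3.90 and 3.48 in DOX+ and 4.15, 4.33 and 3.39 in DOX-. It varied less than the Fc receptors, with a difference of -0.22 (SE 0.28) and -0.086 for its second probe. Fcgr2b, the inhibitory Fc receptor, which lacks an ITAM, was the exception in sign. It read -1.35, -0.35 and 0.13 in DOX+ and -0.98, -1.33 and -2.18 in DOX- and was 1.96-fold higher in DOX+ on average (difference 0.97, SE 0.46, adjusted p = 0.426), with a second probe at 0.94. DOX+ replicate 1 lay among the DOX- arrays for Fcgr2b, so the groups overlapped. B cells carry this receptor as well. Of 8 measured B cell and plasma cell genes 5 were higher and 3 lower in DOX+ with none past the test, and their array means were 0.36 to 0.61 in DOX+ and -0.38 to 0.29 in DOX-. That gap came mostly from Jchain, the joining chain of secreted antibody (difference 3.63), as without it the means were 0.037 to 0.22 in DOX+ and -0.22 to 0.28 in DOX-. The part of these cells in the Fcgr2b values was not tested.

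Genes of resident-type macrophages were all higher in DOX+ on average where they could be tested, 7 of 7 with a median difference of 0.32, although none passed the test. Their array means were -0.34, -0.33 and -0.88 in DOX+ and -0.48, -1.01 and -1.56 in DOX-, so DOX- replicate 1 lay among the DOX+ arrays. Without DOX- replicate 3 the median was 0.076 with 4 of 7 higher. Cd163 encodes the scavenger receptor for haptoglobin bound to haemoglobin (probe at chr6:124280484-124280543, mm9) and showed the largest difference of the list. It read -1.14, -0.34 and -1.62 in DOX+ and -1.75, -2.66 and -2.84 in DOX-, with every DOX+ array above every DOX- array. The difference was 1.38 (SE 0.42, adjusted p = 0.282), or 2.61-fold, and 1.17 without DOX- replicate 3. A second Cd163 probe differed by -0.68, but it was well above background on no DOX+ array and only 1 DOX- array and was not tested. Folr2 encodes folate receptor beta, a marker of perivascular resident macrophages (chr7:108988771-108988830, mm9). It read -2.27, -2.10 and -2.39 in DOX+ and -2.54, -3.17 and -3.65 in DOX- and did not overlap between groups either. Its difference was 0.87 (SE 0.29, adjusted p = 0.308), and 0.60 without DOX- replicate 3. Within the first row of the slide, which holds the 3 DOX+ arrays and DOX- replicate 1, the differences were 0.72 for Cd163 and 0.29 for Folr2, since DOX- replicate 1 was the highest of the DOX- arrays for both.

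Mrc1, which encodes the mannose receptor CD206, read -0.77, -0.18 and -0.86 in DOX+ and -0.47, -1.02 and -1.52 in DOX- and overlapped between groups (difference 0.40, SE 0.32, and 0.15 without DOX- replicate 3). Lyve1, a hyaluronan receptor of lymphatic endothelium and of a subset of resident macrophages, read -1.92, -1.85 and -3.06 in DOX+ and -1.96, -2.74 and -2.49 in DOX-. Its difference of 0.12 was smaller than its SE of 0.38. For the other 4 genes no difference was tested. Marco, a scavenger receptor, was well above background on 2 DOX+ arrays and 1 DOX- array. No probe of Msr1 (scavenger receptor A), Timd4 (a phosphatidylserine receptor) or Vsig4 (a complement receptor of liver macrophages) was clear of background on a single array. No group difference was measured for these 3 genes.

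C1qa, C1qb and C1qc encode the 3 chains of complement C1q, which macrophages make in most tissues, and lie next to each other on chromosome 4. C1qa read 0.98, 0.52 and 0.39 in DOX+ and 0.94, 0.65 and -0.23 in DOX-. C1qb read 0.70, 0.25 and 0.38 in DOX+ and 0.61, 0.36 and -0.61 in DOX-, and C1qc read 2.03, 1.39 and 1.02 in DOX+ and 1.85, 1.53 and 0.44 in DOX-. All 3 genes were highest on DOX+ replicate 1 and lowest on DOX- replicate 3. The group differences were 0.18, 0.32 and 0.21, with SE of 0.33, 0.34 and 0.43, and turned to -0.16, -0.044 and -0.20 without DOX- replicate 3. The 3 chains varied together over the arrays. For 2 of them, C1qb (chr4:136886201-136886450, minus strand) and C1qc (chr4:136892915-136893164, minus strand), the 250 bases before the start are shown, from RefSeq on GRCm38.p6, with GGAAGT on either strand in capitals. The core GGAA is bound by ETS factors, among them PU.1, the main transcription factor of myeloid cells.
C1qb: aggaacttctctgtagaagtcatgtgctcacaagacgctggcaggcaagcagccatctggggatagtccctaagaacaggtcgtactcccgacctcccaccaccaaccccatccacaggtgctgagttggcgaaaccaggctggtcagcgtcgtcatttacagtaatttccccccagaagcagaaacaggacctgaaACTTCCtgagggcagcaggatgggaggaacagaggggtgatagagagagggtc
C1qc: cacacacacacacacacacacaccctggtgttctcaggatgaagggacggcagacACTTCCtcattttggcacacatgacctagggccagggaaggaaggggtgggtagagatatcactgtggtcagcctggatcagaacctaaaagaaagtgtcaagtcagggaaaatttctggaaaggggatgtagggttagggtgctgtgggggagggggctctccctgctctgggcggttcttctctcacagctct
Each of the promoters shown holds 1 copy, read on the opposite strand. C1qa was not among the members found to hold GGAAGT. Its promoter is not shown, and whether it was among those searched is not given here. The match in C1qc is part of the longer GAGGAAGT and the match in C1qb is not. Promoters of 27 of the 36 members were in the RefSeq table, and 15 of those 27 (55.6%) held GGAAGT on either strand, against 22.2% of the 27025 genes in the table. GAGGAAGT was found in 2 of 27 members (C1qc and Ly6c2, 7.41%) and 2.79% of all genes. Of the 8 overlapping or separate patterns searched on both strands, GAGGAA was in 15 members (25.9% of all genes), AGGAAGT in 8 (8.8%), AGAGGAAGT in 1 (0.94%), TGAGTCA in 3 (5.16%), the interferon-stimulated response element in its loose form in 1 (3.46%) and in a stricter form in 0 (0.0518%). These are matches of letters and no binding was measured.

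The monocyte genes went in opposite directions, and each separated the groups. Ly6c2 encodes a surface protein of inflammatory monocytes and had the smallest p of all members. It read 5.84, 5.52 and 4.94 in DOX+ and 4.32, 4.32 and 4.61 in DOX-, every DOX+ array above every DOX- array. The difference was 1.02 (SE 0.25, 2.02-fold, adjusted p = 0.224). Leaving out single arrays gave 0.82 to 1.26, and unlike most members Ly6c2 was not low on DOX- replicate 3. Ly6c1, the neighbouring copy, is known from endothelial cells, and its brighter probe differs from the Ly6c2 probe at 3 of 60 bases (C8G, G57A and T60C, Ly6c2 base first, counted from 1 at the probe's 5′ end). Bases 31 to 60 of both probes are shown because the pair cannot be separated with confidence by hybridisation, with the differing bases in capitals.
Ly6c2: tctggggtcctgcagggttcccatgtGtgT
Ly6c1: tctggggtcctgcagggttcccatgtAtgC
The Ly6c2 probe lies at chr15:74938637-74938695 and the Ly6c1 probe at chr15:74875495-74875554 (mm9). The Ly6c1 probe read 5.68, 5.43 and 4.84 in DOX+ and 4.23, 4.27 and 4.66 in DOX-, nearly the same order and distances as Ly6c2. A second Ly6c1 probe, placed elsewhere in the gene, read 0.91, 1.24 and 0.76 in DOX+ and 0.40, 0.060 and 0.75 in DOX-. Its DOX+ mean was higher by 0.57, with DOX- replicate 3 just below DOX+ replicate 3. Which of the 2 genes the Ly6c2 values belong to is therefore uncertain. Of the 57 member probes, this was the only one that shared 18 or more bases in a row with another of the 56605 probes. Over the same arrays the mean of 14 endothelial and lymphatic marker genes was 0.14, 0.23 and -0.25 in DOX+ and -0.13, -0.60 and -0.66 in DOX-, and 12 of the 14 were higher in DOX+ on average with none past the test. The part of these cells in the Ly6c2 values was not tested.

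Plac8 encodes a small cysteine-rich protein found in monocytes and also in epithelial cells (chr5:100982797-100982856, mm9). It was the only member with every DOX+ array below every DOX- array, at 5.18, 4.58 and 5.15 in DOX+ and 5.38, 5.70 and 5.95 in DOX-. The difference was -0.71 (SE 0.23, adjusted p = 0.303). It was highest on DOX- replicate 3, the array on which the general macrophage genes were lowest. The mean of 13 bile duct and epithelial marker genes was likewise highest there, at 4.01, against 3.36 to 3.59 in DOX+ and 3.79 and 3.88 on the other DOX- arrays. Whether the Plac8 signal came from epithelium was not tested.

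**Figure D3:**
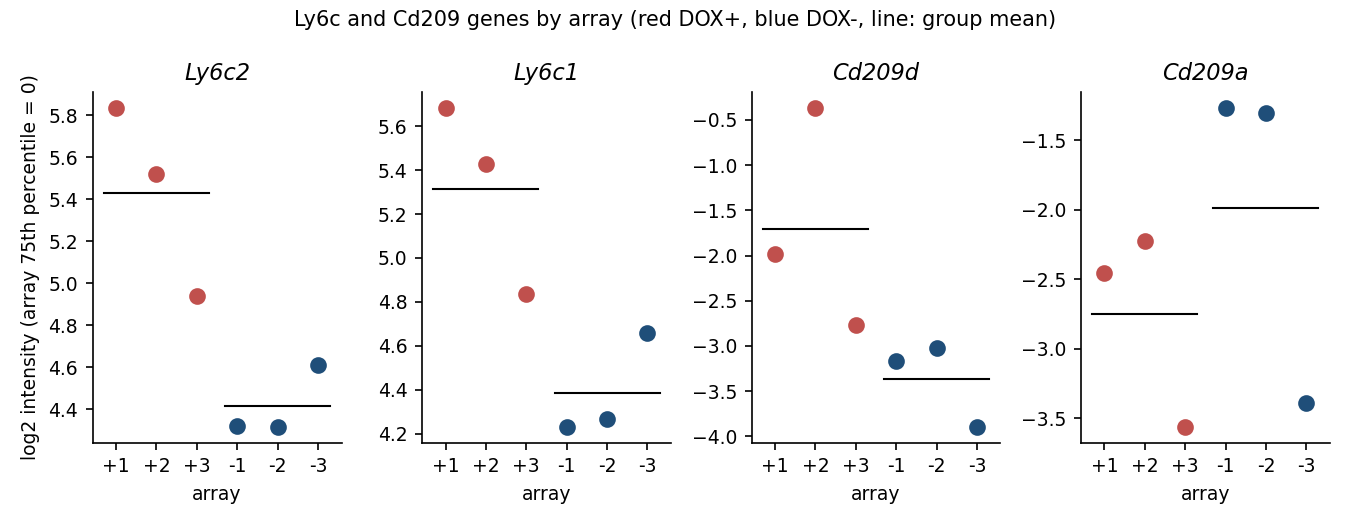
Log2 intensity of Ly6c2, Ly6c1 (its brighter probe), Cd209d and Cd209a on each array (+1 to +3 DOX+, red; -1 to -3 DOX-, blue), with the group means as lines. The Ly6c probes share 1 pattern with DOX+ above DOX-, whereas Cd209d is higher in DOX+ and Cd209a is high on DOX- replicates 1 and 2 only.

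Trem2 and Gpnmb are raised in macrophages that handle lipid and debris. Trem2, a lipid-sensing receptor that signals through DAP12, read -0.11, -1.41 and -1.64 in DOX+ and -0.48, -0.80 and -2.82 in DOX-. The groups overlapped, and its difference of 0.31 (SE 0.71) turned to -0.42 without DOX- replicate 3. Gpnmb encodes a lysosome-associated glycoprotein and read -4.18, -3.68 and -4.53 in DOX+ and -4.51, -5.84 and -6.78 in DOX-. The DOX- replicate 1 value of Gpnmb lay just above DOX+ replicate 3, so the groups overlapped. It was well above background on all 3 DOX+ arrays and on 1 DOX- array, so its DOX- mean rests partly on background. Its difference of 1.58 (SE 0.57, adjusted p = 0.335) was 1.05 without DOX- replicate 3 and 0.38 against DOX- replicate 1 within the first slide row.

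The 8 dendritic cell genes had 5 means above and 3 below those of DOX-, a median of 0.26 and no gene past the test. The C-type lectins of the list parted. Cd209d (chr8:3871827-3871886, mm9), a mouse relative of the human lectin DC-SIGN, read -1.99, -0.37 and -2.76 in DOX+ and -3.17, -3.02 and -3.90 in DOX-, with no overlap. DOX+ replicate 2 was far above the rest. The difference was 1.66 (SE 0.62, 3.15-fold, adjusted p = 0.343) and 0.99 without DOX+ replicate 2. A second Cd209d probe was well above background on 2 DOX+ arrays and on no DOX- array. It read -3.70, -2.12 and -5.14 in DOX+ and -5.49, -5.43 and -7.02 in DOX-, so its difference rests partly on background and was not tested. Cd209a (chr8:3743481-3743540, mm9), which marks monocyte-derived dendritic cells, read -2.46, -2.23 and -3.56 in DOX+ and -1.27, -1.30 and -3.39 in DOX-. It was high on DOX- replicates 1 and 2 alone, with a difference of -0.76 (SE 0.66), and -1.46 without DOX- replicate 3.

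Clec4n encodes dectin-2, a receptor for fungal mannans that signals through the Fc receptor gamma chain. It read -0.67, -1.17 and -0.97 in DOX+ and 1.11, 1.18 and -1.49 in DOX-, the same pattern as Tyrobp and Fcer1g. The difference was -1.20 (SE 0.72, adjusted p = 0.509), and without DOX- replicate 3 it was -2.08 with an adjusted p of 0.0636, the smallest of any member without that array. Clec10a, a galactose-type lectin of macrophages and dendritic cells, read -0.52, -0.11 and -0.81 in DOX+ and -0.34, -0.96 and -1.63 in DOX-, in the same order of arrays as Mrc1. Its difference of 0.49 (SE 0.36) was 0.16 without DOX- replicate 3.

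Batf3 and Clec9a belong to cross-presenting dendritic cells. Batf3, a transcription factor this lineage needs, read -2.10, -1.37 and -1.77 in DOX+ and -2.19, -2.38 and -3.89 in DOX- and did not overlap between groups. Its difference of 1.07 (SE 0.48, adjusted p = 0.4) was 0.53 without DOX- replicate 3. Clec9a, a receptor for dead cells, read -4.28, -3.99 and -4.29 in DOX+ and -4.35, -4.83 and -6.86 in DOX- and cleared background on only 1 of its DOX- arrays. Although its groups did not overlap, with a difference of 1.16 (SE 0.63), a second probe differed by 0.071, so the probes disagreed. Zbtb46, a transcription factor of conventional dendritic cells, read -3.23, -3.41 and -3.84 in DOX+ and -3.15, -3.70 and -3.75 in DOX-. Its difference of 0.037 (SE 0.23) turned sign under 9 of 16 alternatives. Flt3 read -2.995, -3.56 and -3.93 in DOX+ and -3.45, -2.98 and -2.30 in DOX- with the probe that represents it, which is matched to a cDNA clone, a difference of -0.59 (SE 0.36). The probe matched to its RefSeq transcript read -3.76, -3.06 and -3.48 in DOX+ and -2.90, -2.75 and -4.80 in DOX-, a difference of 0.049, so the 2 probes differed in their order of arrays.

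**Figure D4:**
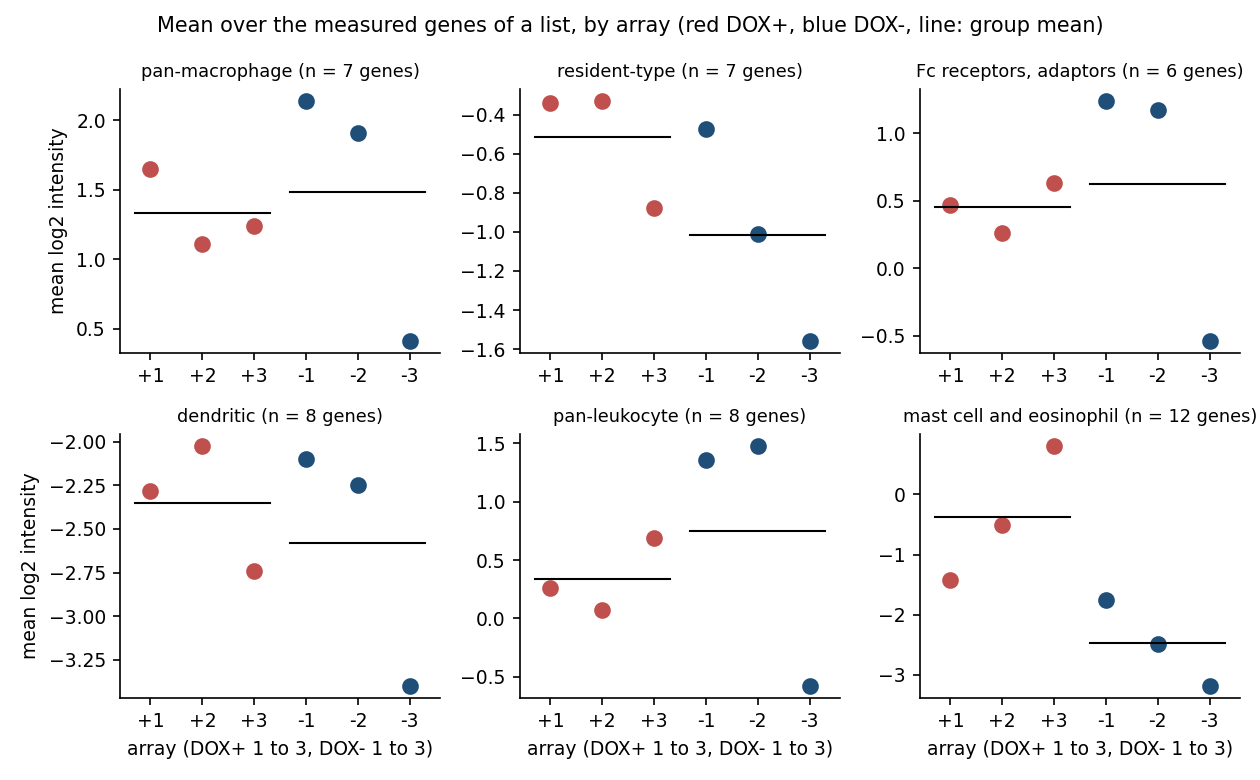
Mean log2 intensity over the tested genes of 6 lists on each array (+1 to +3 DOX+, red; -1 to -3 DOX-, blue; lines are group means). General macrophage, Fc receptor and leukocyte genes are highest on DOX- replicates 1 and 2 and lowest on DOX- replicate 3, while mast cell and eosinophil genes range from -1.42 to 0.80 in DOX+ and from -3.18 to -1.76 in DOX-.

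Markers of other cells were read beside the members, and none of those lists held a gene past the test. DOX- replicate 1 stood apart in some. Its mean over smooth muscle genes was 3.19, against 0.76 to 2.39 on the other arrays. Over hepatocyte and pancreatic acinar genes it was -0.047, against 1.66 to 2.19, and over fibroblast genes 2.65, against 1.89 to 2.47. The part of this in the slide row values, which rest on that DOX- array, was not tested. The 8 leukocyte genes had array means of 0.26, 0.068 and 0.68 in DOX+ and 1.36, 1.47 and -0.58 in DOX-. Like the general macrophage genes they were high on DOX- replicates 1 and 2, and 7 of the 8 were lowest on DOX- replicate 3. Ptprc, which encodes the leukocyte antigen CD45, was represented by a probe for an Ensembl transcript that stayed between 1.88 and 2.12. A RefSeq-matched Ptprc probe, picked after its values were seen, read 0.32, -0.023 and 0.82 in DOX+ and 1.78, 2.02 and -0.34 in DOX-. Neutrophil markers had array means of -0.83 to 1.01 in DOX+ and 1.68, 1.77 and -0.34 in DOX-, also high on DOX- replicates 1 and 2. Of these 8 genes, 5 were higher and 3 lower in DOX+ on average with a median of 0.17, and 4 of 8 were higher without DOX- replicate 3. Ly6g, a neutrophil surface protein, had the smallest p of the list and was higher in DOX+ without overlap, by 1.21 (SE 0.33, adjusted p = 0.254). It read 0.60, 0.20 and -0.57 in DOX+ and -1.49, -1.08 and -0.82 in DOX-. This is the order of arrays of Ly6c1, also on chromosome 15, and whether Ly6g reports on neutrophils was not tested. S100a8, part of the neutrophil protein calprotectin, differed by -3.06 (SE 1.63, adjusted p = 0.463) with overlap, and by -1.68 without DOX+ replicate 2. S100a9 and Ltf differed by -2.89 and -2.87. Tyrobp, Fcer1g, Clec4n, Lyz2 and Laptm5 are also made by neutrophils, and the part of those cells in their values was not tested. Mast cell and eosinophil genes went the other way, with 11 of 12 means higher in DOX+ and a median of 2.15. That list reports almost wholly on mast cell genes. Of its eosinophil genes only Il5ra was tested, with a difference of 0.25 (SE 0.21, adjusted p = 0.645) and overlap. Prg2, Epx and Ccr3 were not tested. The mast cell tryptase gene Tpsb2 differed by 2.18 (SE 0.42, adjusted p = 0.176). Fcer1g is part of the mast cell IgE receptor too, and the part of mast cells in its values was not tested.

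The factors that maintain and recruit these cells were followed from separate lists. Of 10 measured ligands and receptors of the CSF1, CSF2 and FLT3 systems, 5 were higher and 5 lower and none passed the test. Il34, the second ligand of CSF1R, read 0.77, 0.78 and 0.53 in DOX+ and 0.19, 0.24 and -0.43 in DOX-. The groups did not overlap, with a difference of 0.69 (SE 0.21, adjusted p = 0.294). Flt3l, the ligand of FLT3, differed by 0.63 (SE 0.24, adjusted p = 0.349) with overlap, and Csf1 by -0.57 (SE 0.45, adjusted p = 0.61), or -1.11 without DOX- replicate 3. Kitl differed by -0.68 (SE 0.33, adjusted p = 0.427) and Csf2rb2 by 1.39 (SE 0.83, adjusted p = 0.504), both with overlap. Of 15 monocyte recruitment genes, 6 were higher and 9 lower with none past the test. Ccl8, a chemokine that draws monocytes and that resident macrophages also make, showed the largest difference of that list at 2.81 (SE 0.69, adjusted p = 0.224). It read 0.15, 2.07 and 1.13 in DOX+ and -0.50, -1.92 and -2.68 in DOX-, an order of DOX- arrays like that of Cd163 and Folr2. Cx3cl1, an epithelial chemokine that holds monocyte-derived cells, was lower without overlap by 0.70 on the log2 scale (difference -0.70, SE 0.14, adjusted p = 0.183). Of 19 ITAM and Fc receptor signalling genes, 17 were lower in DOX+, with a median of -0.40 and none past the test, and the median was -0.76 without DOX- replicate 3, -0.23 without DOX- replicate 1 and -0.19 without DOX- replicate 2. Lyn and Syk, the kinases that start ITAM signalling, differed by -0.75 (SE 0.24) and -0.54 (SE 0.18) with no overlap, with adjusted p of 0.296 and 0.303. Clec5a, a receptor that pairs with DAP12, differed by -1.78 (SE 0.57, adjusted p = 0.297), and DOX- replicate 3 overlapped the DOX+ arrays.

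Set side by side, the median difference was 0.32 over 7 resident-type genes, 0.16 over 2 monocyte genes, 0.26 over 8 dendritic cell genes, 0.94 over 2 lipid-associated genes, -0.15 over 7 general macrophage genes and -0.15 over 6 Fc receptor and adaptor genes. Without DOX- replicate 3 the same medians were 0.076, 0.27, -0.29, 0.32, -0.71 and -0.68. The lipid-associated median rests on Gpnmb, and was 0.29 with normexp background correction and 0.31 for Trem2 alone, the only one of the pair well above background on all 6 arrays. In both readings the resident-type median was above the general macrophage median, and differences between the lists were not tested.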

How the data were processed

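Total RNA of 6 samples (3 DOX+ and 3 DOX-) was labelled with Cy3 and hybridised to 60-base Agilent probes on 1 slide. The deposited files hold spot intensity values; per the file headers they came from Feature Extraction 10.7.1.1, while the submitters' processing notes name 9.5.1.1. The processed intensity, already background-corrected, was taken to log2 and each array's 75th percentile subtracted. Control spots and 50 to 64 outlier spots per array were left out, and 0 spots were saturated. A probe was kept if each of the 3 arrays in 1 or both groups read it well above background (31720 of 56605), and the brightest kept probe represented a gene (20737 genes). The comparison used limma 3.58.1 (R 4.3.3) with Benjamini-Hochberg adjustment over all genes. On simulated data with these 20737 genes, 31.8% of 2-fold, 86.8% of 4-fold and 93.5% of 8-fold changes were recovered, with 5.34% of calls false. The simulated noise was independent between genes, with no shift shared by the genes of an array, and recovery was averaged over all genes. These shares do not give the recovery for the members, whose median SE was 0.43 against 0.19 over all genes. The number of arrays limits the precision. Array names were updated through RefSeq accessions (32989 probes), symbols (10228) or older symbols (519), and 12869 kept the file's name. Probe positions are those of the files (mm9); exon or UTR annotation of that build was not used here.

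The members and lists were chosen with earlier results of these data known. All members are named. Genes named from other lists were among the 4 with the smallest p of their list, except Csf1, Krt19, Ptprc and Il5ra. Not every gene among those 4 is named. Alternatives covered background correction, normalization, filters, probe choice, replicate and slide row blocks, array weights and leaving out each array. No pairing of samples by replicate number was seen.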

Additional observations from a re-analysis of the deposited data

How the results depend on the processing

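No member passed limma's test in any alternative except array weights, where Cd163 and Ly6c2 did. Counts of genes past the test moved from 8 to 2 with quantile normalization, 5 with median centring, 2 with the authors' processed values, 1 with no filter on dim probes, 5 with probes well above background on all 6 arrays, 0 with a slide row block and 892 with array weights, and ranged from 0 to 30 when single arrays were left out (0 without DOX- replicate 2). With the replicate number as a replicate block 0 genes passed (2258 at an unadjusted p under 0.05). Each replicate number holds both groups equally, so this block could not change the difference of a member or its sign. Once each gene's group mean was subtracted, the deviations of same-numbered samples correlated at -0.131 to -0.020. Those of differently numbered samples correlated at -0.129 to 0.219. The array weights ran from 0.326 for DOX- replicate 3 to 6.33 for DOX- replicate 2. Median centring moved the median of all genes to -0.13. Blocking on slide row gave list medians of -0.84 for general macrophage, -0.17 for resident-type, -0.80 for Fc receptor and adaptor, -0.096 for lipid-associated, -0.094 for dendritic cell and -0.39 for all members, since DOX- replicate 1 is then the only DOX- array in the row of the DOX+ arrays.

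Under that block the sign turned, to -0.13 for Mrc1, -0.32 for Lyve1, -0.31 for C1qa, -0.17 for C1qb, -0.36 for C1qc, -0.74 for Lyz2, -0.57 for Trem2, -0.14 for Clec10a and -0.34 for Zbtb46. With array weights the sign turned, to -0.0006 for C1qa, -0.37 for Lyz2 and -0.20 for Trem2. With median centring the sign turned, to -0.084 for Lyz2 and -0.078 for Zbtb46. With normexp background correction the sign turned, to -0.007 for Zbtb46. With quantile normalization the sign turned, to -0.064 for Zbtb46. With the authors' processed values the sign turned, to -0.064 for Zbtb46. Leaving out single arrays gave both signs for 14 members, -0.39 to 0.13 for Cd68, -0.63 to 0.21 for Adgre1, -0.092 to 0.52 for Lyve1, -0.16 to 0.42 for C1qa, -0.044 to 0.57 for C1qb, -0.20 to 0.50 for C1qc, -0.58 to 0.28 for Fcgr1, -0.78 to 0.27 for Fcgr3, -0.78 to 0.35 for Mpeg1, -0.54 to 0.42 for Lyz2, -0.42 to 0.75 for Trem2, -0.50 to 1.66 for Clec9a, -0.093 to 0.23 for Zbtb46 and -0.96 to 0.44 for Laptm5. The Clec9a value without DOX- replicate 3 comes from its other probe. In all, 16 members kept their sign in every alternative run, of which the replicate block could turn none. Among them were Cd163, Folr2, Ly6c2, Cd209d, Batf3, Plac8, Tyrobp and Clec4n. The causes of these changes were not tested, other than the change of probe and the arrays each block leaves.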

Other observations

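Genes that run the work of phagocytes gave no call in these data. Of 23 measured phagosome and lysosome genes, 7 had higher means in DOX+ and 16 lower ones, with a median difference of -0.060 (-0.19 without DOX- replicate 3) and none past limma's test. The lysosomal protease gene Ctsb differed by -0.52 (SE 0.18, adjusted p = 0.327), and Cyba, a subunit of the phagocyte oxidase, by -0.59 (SE 0.26, adjusted p = 0.398). Mertk, the receptor by which resident macrophages take up dying cells, differed by 1.02 (SE 0.44, adjusted p = 0.39), while Grn, the lysosomal protein progranulin, read 8.24, 6.13 and 7.64 in DOX+ and 3.45, 6.11 and 6.63 in DOX-, a difference of 1.94 (SE 0.94, adjusted p = 0.431) that was 0.97 without DOX- replicate 1. Of 15 myeloid transcription factor genes, 7 were higher and 8 lower (5 and 10 without DOX- replicate 3). Mitf, which drives lysosomal genes in several lineages including mast cells, read -0.63, -0.48 and -0.79 in DOX+ and -1.45, -1.54 and -2.14 in DOX-, a difference of 1.08 (SE 0.22, adjusted p = 0.183).

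Complement genes beyond C1q had 10 of 16 means higher in DOX+ and a median of 0.21, which turned to -0.079 with 7 of 16 higher without DOX- replicate 3. C1s1, a protease of the C1 complex, differed by 0.91 (SE 0.34, adjusted p = 0.341), and Serping1, its inhibitor, by 0.87 (SE 0.36, adjusted p = 0.376), or 0.60 and 0.58 without DOX- replicate 3. Of 16 further dendritic cell genes, 8 were higher and 8 lower, and 4 and 12 without DOX- replicate 3. Itgae, the integrin CD103 of mucosal dendritic cells and T cells, read -1.35, -1.18 and 0.78 in DOX+ and -1.86, -1.68 and -2.27 in DOX-, a difference of 1.36 (SE 0.57, adjusted p = 0.382) and of 0.68 without DOX+ replicate 3. Cd24a, also an epithelial gene, was lower without overlap (difference -0.73, SE 0.20, adjusted p = 0.249). Of the near copies of members, Ly6a differed by 1.05 (SE 0.37, adjusted p = 0.33), and Lyz1, the intestinal lysozyme, by 0.40 (SE 0.37, adjusted p = 0.669), or -0.0087 without DOX- replicate 3.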
